A study of Mus musculus with 15 samples.

Results

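The comparison of dHD28 with HD28 cells shows which genes differ after mouse mesenchymal stromal cells (MSC), taken toward a hepatocyte-like state, were put back into MSC medium. It set 3 arrays of dHD28 against 3 of HD28, 6 of the 15 arrays of the series, taken by their labels. It covered all 18193 genes with a named probe set. The spread behind each p-value was estimated over all 15 arrays in 5 groups. HD28 cells were MSC that first received hepatocyte growth factor (HGF, 20 ng/ml), basic fibroblast growth factor (bFGF, 10 ng/ml) and nicotinamide (0.61 g/L) for 7 days, and then oncostatin M (20 ng/ml), the synthetic glucocorticoid dexamethasone (1 µmol/L) and an insulin, transferrin and selenium premix. The dHD28 cells went through both steps as well, after which low-glucose DMEM with 10% fetal bovine serum took the place of the second medium, for a time that is not given in the sources used here. They therefore share with HD28 all earlier exposure, and differ from it in the withdrawal of oncostatin M, dexamethasone and the premix and in the medium itself, DMEM with serum for dHD28 and IMDM with no serum named for HD28. Levels in 3 arrays of undifferentiated MSC, kept in that same serum medium, and in 3 arrays of primary mouse hepatocytes (Hepatocyte) are given as a description. For the hepatocytes 10% serum is named as well. No strain, tissue of origin or passage is named, and nothing says that replicates came from separate cultures. The p-values therefore measure the spread between samples within the 5 groups, which may be technical.

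Dexamethasone acts through the glucocorticoid receptor (Nr3c1), a nuclear receptor that binds DNA and both switches genes on and restrains inflammatory ones. Oncostatin M binds a receptor made of Osmr or Lifr with Il6st (gp130), which activates the transcription factor STAT3 and with it acute phase genes in the liver. HGF and bFGF signal through the receptor kinases Met and Fgfr1 to Fgfr4 and the ERK pathway. Serum drives the cell cycle in stromal cells through release of E2F factors from the RB family, and many mitotic promoters hold a short element, the cell cycle homology region, that is bound by the DREAM and MuvB complexes. Serum also activates SRF, which binds the CArG box of genes of the contractile apparatus.

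Promoter windows are shown for 10 genes whose levels are described in the following paragraphs. Within each group they were taken, largest change first, from members that changed with all arrays and hold the element their group is known for. Members that hold the element without a call are not shown. The windows are RefSeq sequences of GRCm38.p6, 250 bases before and 50 after a start site, written 5′ to 3′ on the strand of the gene. The letters searched were TTTGAA and TTCGAA for the cell cycle homology region, TTTCGCGC and TTTGGCGC for E2F, TGCGCNC and TGCACNC for the metal response element, and by name the palindromic glucocorticoid response element and the CArG box, each on both strands. Capitals mark the cell cycle homology region in Cdca8 and Cenpa, which encode a subunit of the chromosomal passenger complex and the centromeric histone.
Cdca8, chr4:124936868-124937167, minus strand: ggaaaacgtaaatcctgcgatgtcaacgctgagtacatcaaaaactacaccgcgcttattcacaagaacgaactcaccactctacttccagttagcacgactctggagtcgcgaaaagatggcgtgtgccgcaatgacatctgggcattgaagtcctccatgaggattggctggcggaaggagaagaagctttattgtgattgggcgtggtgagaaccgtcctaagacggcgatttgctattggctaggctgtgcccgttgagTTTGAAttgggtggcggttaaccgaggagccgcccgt
Cenpa, chr5:30666636-30666935, plus strand: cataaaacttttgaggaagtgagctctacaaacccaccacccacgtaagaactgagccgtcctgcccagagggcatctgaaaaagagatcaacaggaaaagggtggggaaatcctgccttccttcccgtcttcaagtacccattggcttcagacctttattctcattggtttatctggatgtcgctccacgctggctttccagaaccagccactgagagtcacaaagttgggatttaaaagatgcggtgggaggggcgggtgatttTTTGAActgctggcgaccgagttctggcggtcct
Capitals mark E2F letters in Mcm5 and Mcm3, which encode subunits of the replicative helicase, and in Uhrf1 and Dnmt1, which bring methylation to newly copied DNA. In Mcm5 a pair of matches overlap.
Mcm5, chr8:75109259-75109558, plus strand: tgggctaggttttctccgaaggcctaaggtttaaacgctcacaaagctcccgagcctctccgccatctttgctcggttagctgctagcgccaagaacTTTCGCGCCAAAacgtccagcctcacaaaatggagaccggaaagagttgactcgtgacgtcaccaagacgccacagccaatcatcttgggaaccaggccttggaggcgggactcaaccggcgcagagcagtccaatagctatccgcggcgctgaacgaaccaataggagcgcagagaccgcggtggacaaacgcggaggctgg
Mcm3, chr1:20820263-20820562, minus strand: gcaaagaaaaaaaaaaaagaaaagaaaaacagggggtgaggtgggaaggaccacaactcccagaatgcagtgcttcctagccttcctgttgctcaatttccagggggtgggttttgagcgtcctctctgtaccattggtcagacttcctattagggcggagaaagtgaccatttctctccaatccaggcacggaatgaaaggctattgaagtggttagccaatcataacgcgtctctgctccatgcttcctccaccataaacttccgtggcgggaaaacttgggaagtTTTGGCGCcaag
Uhrf1, chr17:56304063-56304362, plus strand: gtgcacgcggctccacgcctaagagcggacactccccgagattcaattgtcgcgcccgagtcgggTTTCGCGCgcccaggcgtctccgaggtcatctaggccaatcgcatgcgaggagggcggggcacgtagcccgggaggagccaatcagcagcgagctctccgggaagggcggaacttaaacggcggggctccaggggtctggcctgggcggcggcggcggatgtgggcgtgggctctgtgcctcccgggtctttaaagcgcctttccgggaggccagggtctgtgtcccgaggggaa
Dnmt1, chr9:20952574-20952873, minus strand: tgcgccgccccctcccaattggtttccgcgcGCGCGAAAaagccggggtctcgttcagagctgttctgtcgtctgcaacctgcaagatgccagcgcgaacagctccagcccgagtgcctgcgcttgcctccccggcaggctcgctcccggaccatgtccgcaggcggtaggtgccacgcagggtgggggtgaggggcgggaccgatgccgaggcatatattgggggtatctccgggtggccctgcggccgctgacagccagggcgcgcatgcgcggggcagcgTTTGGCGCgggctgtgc
Capitals mark the palindromic glucocorticoid response element in Mt1 and metal response letters in Mt2, the neighbouring metallothionein genes.
Mt1, chr8:94178839-94179138, plus strand: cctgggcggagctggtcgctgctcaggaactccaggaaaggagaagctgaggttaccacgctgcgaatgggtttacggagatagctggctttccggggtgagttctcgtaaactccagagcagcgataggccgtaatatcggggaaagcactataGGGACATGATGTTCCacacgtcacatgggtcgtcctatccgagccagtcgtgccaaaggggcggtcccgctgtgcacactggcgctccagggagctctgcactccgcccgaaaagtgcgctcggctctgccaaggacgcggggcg
Mt2, chr8:94172368-94172667, plus strand: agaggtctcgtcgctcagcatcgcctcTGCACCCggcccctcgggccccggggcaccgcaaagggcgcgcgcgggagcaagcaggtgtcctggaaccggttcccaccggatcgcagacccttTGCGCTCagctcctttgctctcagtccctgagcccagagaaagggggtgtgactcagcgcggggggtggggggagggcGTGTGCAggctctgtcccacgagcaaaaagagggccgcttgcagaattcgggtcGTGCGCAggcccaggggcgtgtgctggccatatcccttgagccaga
Capitals mark the CArG box in Myl9, a light chain of smooth muscle myosin, and in Srf, the gene of the factor itself.
Myl9, chr2:156775214-156775513, plus strand: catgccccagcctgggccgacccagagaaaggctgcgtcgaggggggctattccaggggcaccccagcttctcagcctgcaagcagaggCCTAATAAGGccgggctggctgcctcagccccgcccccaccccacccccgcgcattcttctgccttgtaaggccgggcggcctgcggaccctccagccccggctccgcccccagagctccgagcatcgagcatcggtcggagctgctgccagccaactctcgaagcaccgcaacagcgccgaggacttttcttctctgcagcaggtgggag
Srf, chr17:46556113-46556412, minus strand: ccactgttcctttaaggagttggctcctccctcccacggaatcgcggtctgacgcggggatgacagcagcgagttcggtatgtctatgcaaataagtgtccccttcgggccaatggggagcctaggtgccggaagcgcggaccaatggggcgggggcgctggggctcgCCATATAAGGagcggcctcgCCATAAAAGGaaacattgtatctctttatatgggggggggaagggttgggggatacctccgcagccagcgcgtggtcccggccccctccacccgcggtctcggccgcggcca

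Among the windows of the mitosis list, 22 of 27 (81.5%) held the cell cycle homology letters, against 19.2% of all 32851 windows in the table, and 74.1% held CCAAT, against 37.4%. Windows of the replication list held E2F letters in 9 of 30 cases (30.0%), against 0.813% of all windows, while 16.7% of them held the cell cycle homology letters. The CArG box was present in 4 of 25 windows of contractile genes (16%), against 1.63% of all. In the glucocorticoid list, 2 of 28 windows (7.14%) held the palindromic element, those of Mt1 and Sgk1, against 0.0913% of all, and 17.9% held its 6-base arm AGAACA or TGTTCT, against 19%. Metal response letters stood in 37.5% of windows of the metal list, against 25.7%, and TTCCNGGAA, the STAT letters, in 0 of 26 windows of the STAT3 list, against 1.15%. These shares describe letters near a start site, and elements elsewhere in a gene were not looked for.

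The 6 arrays had medians between 4.84 and 4.90 on the log2 scale. Abundant stromal transcripts were high in all of them. Summed linearly, 11 stromal markers, among them Col1a1, Col3a1 and Vim, gave 37010 to 42310 in dHD28 and 48010 to 54040 in HD28. Hepatocyte arrays had 504.5 to 2753. Such a sum rests mostly on the brightest genes, and not every member followed it. Eng averaged 6.4 in dHD28 and 6.66 in HD28, against 8.02 in Hepatocyte. Nt5e averaged 5.94 and 5.88, against 6.14. Thy1 was above Hepatocyte (4.64) in dHD28 (5.44) but below it in HD28 (3.93). The other members averaged higher in both groups than in Hepatocyte. HD28 replicate 3 stood apart. Its 11 hepatocyte markers, among them Alb, Apoa1 and Ttr, summed to 53580, against 243.1 and 291.2 in HD28 replicates 1 and 2, 250.4 to 333.8 in dHD28 and 103100 to 110600 in Hepatocyte. The macrophage markers summed to 625.4 there, against 277.4 and 300.1 in the other HD28 arrays and 234.6 to 262.1 in dHD28. The epithelial markers summed to 2502, against 539.8 and 480.6 and 296.7 to 541.5, and the sums of endothelial and stellate cell markers were also highest in it. Krt8 and Krt18, at 9.92 and 9.93 there, averaged 11.26 and 11.15 in Hepatocyte. Cdh1 and Krt19 were also highest in it among HD28 arrays, but Krt7, Epcam and Sox9 were not. Of the stellate cell markers Reln and Rgs5 were at 6.45 and 6.22, while Des and Hhip were lowest in it among HD28 arrays. Its difference between 3′ and 5′ actin probe sets, a measure of RNA integrity, was 0.94, against 0.29 and 0.23 in the other HD28 arrays and 0.08 to 0.42 in dHD28. The Hepatocyte arrays had 0.66 to 1.24. Counts over all genes, and most counts over gene lists, are therefore given with all arrays and without that array. Poly-A spike-in signal was high in replicate 2 of both groups (7.84 in dHD28 and 7.05 in HD28) and low in the other 4 arrays (4.44 to 4.68). In bulk RNA, fewer cells of a type and less RNA per cell cannot be told apart.

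Return to MSC medium went with a change in 1605 genes (8.82% of those tested), 843 higher in dHD28 (4.63%) and 762 lower (4.19%) (limma, fold of 2 or more, Benjamini-Hochberg adjusted p below 0.05). The shares of 4.63% and 4.19% are those to set beside each list count below. Without HD28 replicate 3 the test called 1338 genes (7.35%), 712 higher (3.91%) and 626 lower (3.44%). Of the calls 1244 were shared in the same direction, 361 needed all arrays, 94 appeared without that array, and 0 pointed opposite ways. With the replicate number as a block 844 genes were higher (4.64%) and 766 lower (4.21%). More decreases than increases were large. At a fold of at least 4 there were 176 genes higher and 287 lower, and at a fold of at least 16 there were 7 higher and 53 lower. Without HD28 replicate 3 these counts were 192 higher and 254 lower, and 11 higher and 44 lower. Over all genes the median log2 change was 0.05, or 0.07 without HD28 replicate 3, and 29.4% of genes had arrays that did not overlap between the groups. Centring the arrays on 21 housekeeping genes, which themselves ranged from -1.11 to 1.43 in log2 change, moved the median of all genes to -0.11 and the split to 624 higher and 1010 lower.

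**Figure D1:**
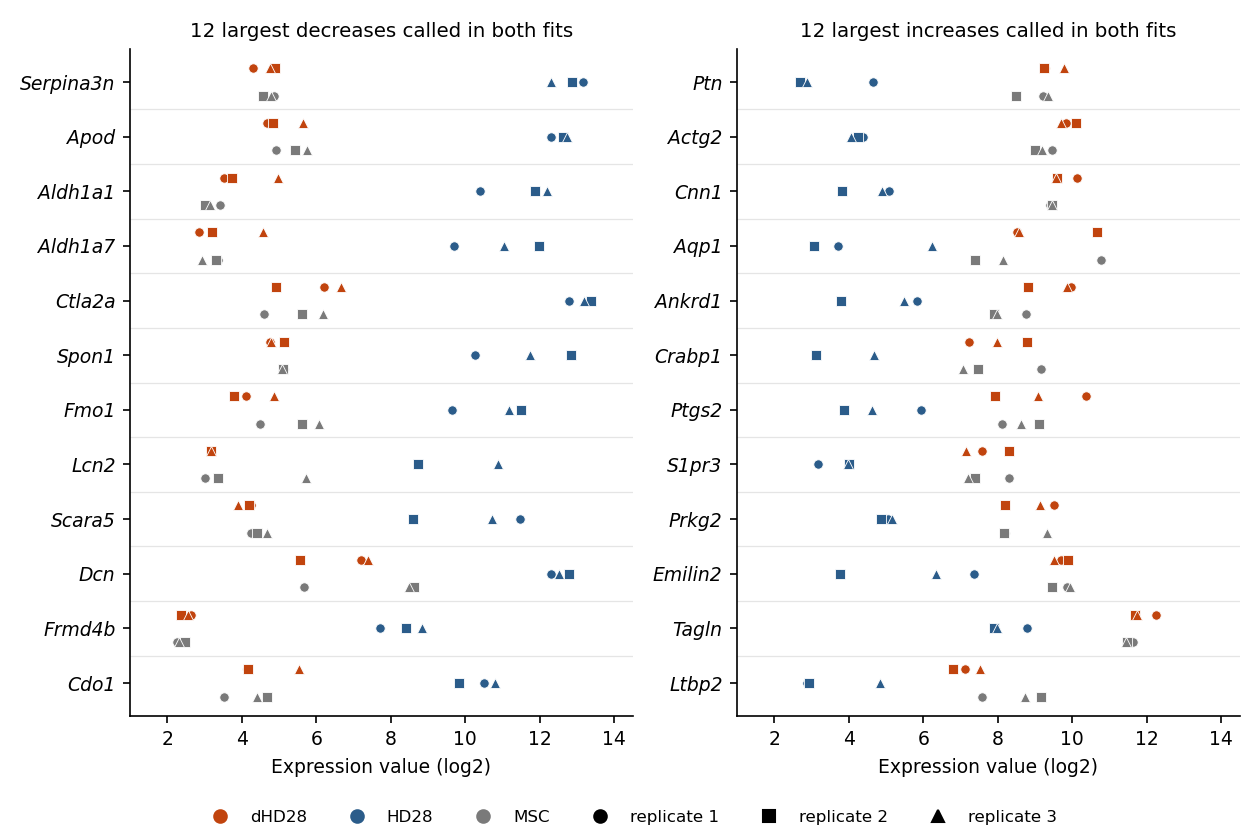
Expression values (log2, horizontal axis) of the 12 genes with the largest decreases (left) and the 12 with the largest increases (right) in dHD28 against HD28 among genes that changed both with all arrays and without HD28 replicate 3 and whose arrays do not overlap, one point per array, with MSC arrays as a description and marker shapes for the replicate. Every dHD28 array lies on one side of every HD28 array, as the choice of these genes requires, and most MSC arrays lie near dHD28; Serpina3n, for example, is at 4.29 to 4.9 in dHD28, 12.3 to 13.16 in HD28 and 4.75 on average in MSC.

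Of the large decreases in genes called in both fits, those of 6 genes are given by array here. They are not the largest. Serpina3n (log2 change -8.13) and Ctla2a (-7.19), for example, fell further. Spon1 encodes a matrix protein first known from the floor plate of the nervous system. Its level was 4.76, 5.14 and 4.79 in the dHD28 arrays and 10.27, 12.83 and 11.74 in the HD28 arrays, a log2 change of -6.72 (SE 0.45, adjusted p = 1.6e-06). Fmo1, a flavin monooxygenase that oxidises drugs, was at 4.1, 3.79 and 4.86 in dHD28 and at 9.65, 11.51 and 11.19 in HD28 (log2 change -6.53, SE 0.74, adjusted p = 0.00011). The ferritin receptor gene Scara5 had 4.25, 4.19 and 3.89 in dHD28, against 11.48, 8.59 and 10.71 in HD28 (log2 change -6.15, SE 0.58, adjusted p = 2.6e-05), although another of its probe sets had the opposite sign without passing the test. In these 3 genes the groups lay more than 4 log2 units apart, and replicate 2 of HD28 was the lowest for Scara5 and the highest for Spon1 and Fmo1. MSC averaged 5.1 for Spon1, 5.39 for Fmo1 and 4.45 for Scara5.

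Cdo1, the cysteine dioxygenase that starts the route to taurine, stood at 4.13, 4.16 and 5.53 in dHD28 and at 10.51, 9.83 and 10.8 in HD28 (log2 change -5.77, SE 0.46, adjusted p = 7.1e-06). Frmd4b, a scaffold at epithelial cell junctions, read 2.63, 2.38 and 2.56 in dHD28 and 7.72, 8.42 and 8.84 in HD28 (log2 change -5.8, SE 0.37). Lcn2, the siderophore-binding lipocalin, read 3.17, 3.17 and 3.16 in dHD28 and 8.72, 8.74 and 10.87 in HD28 (log2 change -6.28, SE 1.36, adjusted p = 0.0078). The dHD28 levels of Frmd4b and Lcn2 lay under the lower quartile of every array (3.43 to 3.7), so the size of these changes is approximate. Cdo1 and Frmd4b were high in Hepatocyte too, with means of 12.58 and 9.57. Aldh1a1 and Aldh1a7 are near-identical genes whose probe sets can share signal, as those of Mt1 and Mt2, of the Serpina3 family and of H2-D1 and its relatives can.

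Of the large increases in genes called in both fits, 3 are given by array. Aqp1, a water channel, was at 8.52, 10.66 and 8.57 in dHD28 and at 3.71, 3.06 and 6.23 in HD28 (log2 change 4.92, SE 1.09, adjusted p = 0.0089). S1pr3, a receptor for sphingosine 1-phosphate, a lipid carried by serum, was at 7.58, 8.3 and 7.14 in dHD28 and at 3.17, 4.01 and 3.97 in HD28 (log2 change 3.96, SE 0.47, adjusted p = 0.00017). Ptgs2, the inducible cyclooxygenase, had 10.37, 7.92 and 9.08 in dHD28, against 5.95, 3.87 and 4.63 in HD28 (log2 change 4.31, SE 0.8, adjusted p = 0.0032). The spread within a group exceeded 2 log2 units for Aqp1 and Ptgs2, yet the lowest dHD28 array was above the highest HD28 array. Prkg2, a cGMP-dependent kinase, rose 15.1-fold, the matrix protein gene Emilin2 14.7-fold, the latent TGF-β binding protein gene Ltbp2 12.2-fold and Crabp1, which carries retinoic acid in the cytosol, 20.4-fold. MSC means of these 7 genes ranged from 7.63 for S1pr3 to 9.76 for Emilin2. These 24 genes were picked for a call that held without HD28 replicate 3, and they also kept it when any other of the 6 arrays was left out. Saa3, at a log2 change of -5.95, is not among them because it lost its call without that array. Ptn, which encodes the growth factor pleiotrophin and rose 65.4-fold, had a dim HD28 level.

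**Figure D2:**
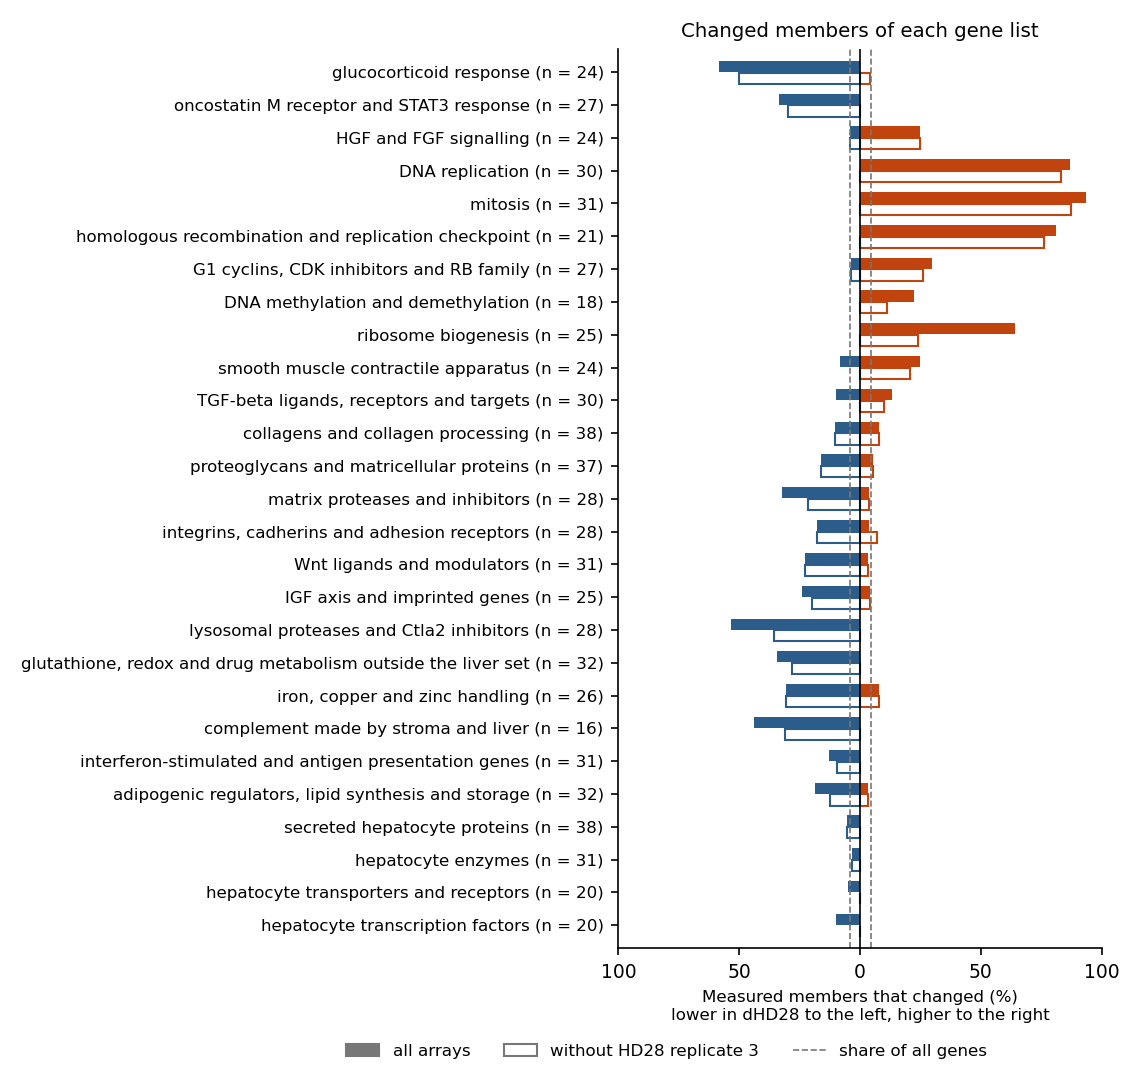
Share of the measured members of 27 gene lists (percent, horizontal axis) that passed the test, lower in dHD28 to the left and higher to the right, with all arrays (filled) and without HD28 replicate 3 (open); dashed lines give the share of all genes, 4.19% and 4.63%. Replication, mitosis and recombination lists lie on the right, glucocorticoid and lysosomal lists on the left, and the ribosome biogenesis bar shortens from 16 of 25 members with all arrays to 6 of 25 without that array.

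Genes that glucocorticoids induce were lower in dHD28: 14 of 24 fell and 0 rose, with a median log2 change of -1.86. Without HD28 replicate 3, 12 fell and 1 rose (median -1.54). Of the 2 members with the palindromic element in their window, Mt1 fell and Sgk1 had no call with all arrays. Tsc22d3, the gene of GILZ, a restrainer of inflammation, was at 8.16, 7.53 and 8.15 in dHD28 and at 12, 11.46 and 11.86 in HD28 (log2 change -3.83, SE 0.43), with 1 of its 4 probe sets of opposite sign. The phagocytic receptor gene Mertk had 4.25, 4.53 and 4.44 in dHD28 and 9.5, 9.84 and 9.79 in HD28 (log2 change -5.3, SE 0.28, adjusted p = 1.7e-07). Sult1a1, a phenol sulfotransferase, was at 3.53, 3.67 and 3.63 in dHD28 and at 6.71, 7.83 and 8.78 in HD28 (log2 change -4.16, SE 0.36). Within dHD28 the arrays of Mertk and Sult1a1 lay close together, far below every HD28 array, and MSC averaged 4.47 and 3.79. The receptor gene Nr3c1 itself did not pass the test, with 8.81, 7.9 and 8.9 in dHD28 and 8.72, 8.31 and 8.41 in HD28 (adjusted p = 0.95). Of the circadian clock genes, several of which glucocorticoids also induce, 4 of 19 fell and 0 rose, or 3 without HD28 replicate 3 and 2 without HD28 replicate 1. Rora, a nuclear receptor of the clock, was 7.22-fold lower and Per1, a repressor in the clock loop, 2.51-fold lower.

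In the list for the oncostatin M receptor and STAT3, 9 of 27 genes fell and 0 rose (median -1.03), or 8 without HD28 replicate 3 (median -0.64), and 1 rose without dHD28 replicate 2 or 3. Lbp, the lipopolysaccharide binding protein, was at 5.12, 5.68 and 4.36 in dHD28 and at 9.19, 10.14 and 9.38 in HD28 (log2 change -4.52, SE 0.52, adjusted p = 0.00014). Saa3, an acute phase amyloid, varied more, with 5.34, 5.82 and 4.97 in dHD28 and 8.76, 12.34 and 12.88 in HD28 (adjusted p = 0.035), and its call was lost without any of the 3 dHD28 arrays or HD28 replicate 2 or 3. The shared receptor chain Il6st was itself 2.59-fold lower, with 9.52, 9.18 and 9.54 in dHD28 and 11, 11 and 10.36 in HD28 (adjusted p = 0.0089). Its partner Lifr was 3.02-fold lower (adjusted p = 0.039), a call that was lost without dHD28 replicate 1 or 2 or HD28 replicate 1 or 3. Osmr, with 8.67, 7.73 and 9.09 in dHD28 and 10.75, 10.27 and 10.48 in HD28, did not overlap between groups and missed the threshold (log2 change -2.01, SE 0.63, adjusted p = 0.052). Receptor levels in MSC were 9.84 for Il6st, 7.41 for Lifr and 8.43 for Osmr.

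Some genes that ERK signalling induces were higher in dHD28. In the list for HGF and FGF signalling 6 of 24 rose and 1 fell (median 0.58), the same counts as without HD28 replicate 3, and 2 fell without dHD28 replicate 3 or HD28 replicate 1 and 0 with another choice of probe set. Etv5, an ETS factor, stood at 7.06, 7.12 and 7.03 in dHD28 and at 4.53, 4.93 and 5.06 in HD28 (log2 change 2.23, SE 0.3, adjusted p = 0.00039). Dusp5, a phosphatase that acts on ERK in the nucleus, stood at 8.3, 7.64 and 7.6 in dHD28 and at 6.03, 5.98 and 5.4 in HD28 (log2 change 2.04, SE 0.28, adjusted p = 0.00046). Phlda1 was 5.07-fold higher and Fosl1, an AP-1 subunit, 4.54-fold higher. The gene that fell was the receptor Fgfr2, 3.51-fold lower, with 8.33, 7.84 and 8.66 in dHD28 and 10.54, 9.91 and 9.82 in HD28, and 1 of its 3 probe sets was called. With the probe set of largest variance its log2 change was -1.32, without a call. The receptor genes Fgfr1, Fgfr3, Fgfr4 and Met and the ligand genes Hgf and Fgf2 did not pass the test together with a fold of 2, with log2 changes between -0.93 for Fgfr1 and 0.7 for Met.

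Genes of cell division were higher in dHD28. Of 30 genes of DNA replication 26 rose and 0 fell (median 1.91), and 25 rose without HD28 replicate 3. Of 31 mitotic genes 29 rose and 0 fell (median 2.19), and 27 rose without that array. Cdca8 was at 9.9, 10.58 and 9.38 in dHD28 and at 6.96, 6.39 and 6.73 in HD28 (log2 change 3.26, SE 0.41). Cenpa stood at 10.09, 10.44 and 9.92 in dHD28 and at 7.46, 7.08 and 7.42 in HD28 (log2 change 2.83, SE 0.32). Both, whose windows hold the cell cycle homology letters, were above 9 in all dHD28 arrays and under 8 in all HD28 arrays. Of the 21 mitotic genes with those letters 20 changed, beside 29 of 31 in the whole list. Mcm5, with E2F letters, had 10.69, 12.14 and 10.87 in dHD28 and 8.05, 8.66 and 8.74 in HD28 (log2 change 2.75, SE 0.51). Mcm3 was 5.21-fold higher, a call that was lost without dHD28 replicate 2. Of the 9 replication genes with E2F letters 8 changed, beside 26 of 30 in the whole list. Ube2c, which extends ubiquitin chains for the anaphase-promoting complex, was 6.94-fold higher, Birc5, the passenger protein survivin, 6.9-fold and Tk1, a thymidine kinase made in S phase, 6.79-fold. Their MSC means were 10.8, 10.21 and 9.77, beside dHD28 arrays from 9.27 to 11.2.

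Of the genes of homologous recombination and the replication checkpoint, 17 of 21 rose and 0 fell (median 1.58; 16 without HD28 replicate 3). Exo1, an exonuclease that resects DNA ends, was at 7.98, 8.44 and 7.56 in dHD28 and at 5.6, 4.65 and 5.19 in HD28 (log2 change 2.85, SE 0.36). Among regulators of G1, the phase before replication, 8 of 27 rose and 1 fell (median 0.45), or 7 and 1 without HD28 replicate 3. The transcription factors of later phases were among them. Foxm1 rose 5.57-fold, Mybl2 7.23-fold and E2f7 5.62-fold, and the cyclin gene Ccne1 rose 4.29-fold. In Mybl2 the dHD28 arrays spanned 6.2 to 8.41, with replicate 3 the lowest, and the HD28 arrays 4.63 to 4.69.

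Targets of p53 did not rise with division: 0 of 17 rose and 4 fell (median -0.68). Perp, a desmosomal p53 target, was at 2.81, 3.08 and 2.73 in dHD28 and at 8.6, 7.39 and 8.47 in HD28 (log2 change -5.28, SE 0.25, adjusted p = 7.6e-08). Its dHD28 level was dim, and the call held in each fit that left 1 array out. The other 3 were fragile, and with dHD28 replicate 1 or 2 or HD28 replicate 1 or 2 left out the count was 1, or 2 without HD28 replicate 3. Trp53inp1, an autophagy regulator, had 7.31, 5.42 and 9.45 in dHD28 and 11.6, 11.2 and 11.72 in HD28 (adjusted p = 0.02).

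Ribosome biogenesis genes also rose, 16 of 25 with 0 lower (median 1.17). The count rested on the set of arrays. It was 5 without dHD28 replicate 1, 8 without dHD28 replicate 2, 10 without HD28 replicate 1, 7 without HD28 replicate 2 and 6 without HD28 replicate 3, where the median was 1.16. Centring on housekeeping genes left 8, and arrays of low spike-in signal alone left 5. Dkc1, the pseudouridine synthase dyskerin, stood at 10.41, 10.02 and 9.79 in dHD28 and at 7.71, 7.94 and 8.61 in HD28 (log2 change 1.99, SE 0.28, adjusted p = 0.0005). Nolc1 and Nop56, nucleolar proteins of the small RNA machinery, were 3.12-fold and 2.87-fold higher. These 3 kept their call in each fit that left 1 array out.

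The title of the series names DNA methyltransferases. Of 18 genes for DNA methylation and its removal 4 rose and 0 fell (median 0.08). The maintenance enzyme Dnmt1 was at 8.72, 10.07 and 8.88 in dHD28 and at 7.63, 7.72 and 7.6 in HD28, a 2.97-fold difference (log2 change 1.57, SE 0.41, adjusted p = 0.021). Its groups did not overlap, but the call was lost without dHD28 replicate 2 or any 1 of the HD28 arrays (adjusted p = 0.055 without HD28 replicate 3). Uhrf1, which guides Dnmt1 to hemimethylated sites, had 10.32, 10.66 and 9.74 in dHD28 and 7.88, 7.08 and 7.62 in HD28 (log2 change 2.71, SE 0.47, adjusted p = 0.002). Hells, a chromatin remodeller needed for methylation, had 10.17, 8.88 and 9.29 in dHD28 and 7.39, 6.12 and 6.88 in HD28 (log2 change 2.65, SE 0.54, adjusted p = 0.0057). The calls of Uhrf1 and Hells held without each of the 6 arrays. Mbd3, a subunit of the NuRD complex, was 2.92-fold higher (adjusted p = 0.038), a call that only the fit without dHD28 replicate 3 kept among those with 1 array left out, so the count was 2 without dHD28 replicate 2 or any 1 HD28 array.

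The de novo methyltransferases showed no call. Dnmt3a was at 6.01, 5.67 and 6.35 in dHD28 and at 5.93, 5.56 and 6.05 in HD28, with overlapping arrays (log2 change 0.16, SE 0.29, adjusted p = 0.8). Dnmt3b stood at 5.52, 5.6 and 5.61 in dHD28 and at 5.08, 5.31 and 5.31 in HD28, without overlap but at a log2 change of 0.35 (SE 0.13, adjusted p = 0.1). Dnmt3l, a cofactor of germ cells, was at a dim 3.32 to 3.48 in dHD28 and 3.36 to 3.58 in HD28. The oxidising enzymes that start demethylation had log2 changes of 0.1 for Tet1, -0.82 for Tet2 and -0.25 for Tet3, none past the threshold, and Gadd45a had -1.74 (SE 1.08) with dHD28 replicate 2 at 5.01, against 7.56 and 8.32 in the other dHD28 arrays. MSC means were 9.24 for Dnmt1, 9.92 for Uhrf1, 6.05 for Dnmt3a and 5.64 for Dnmt3b.

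**Figure D3:**
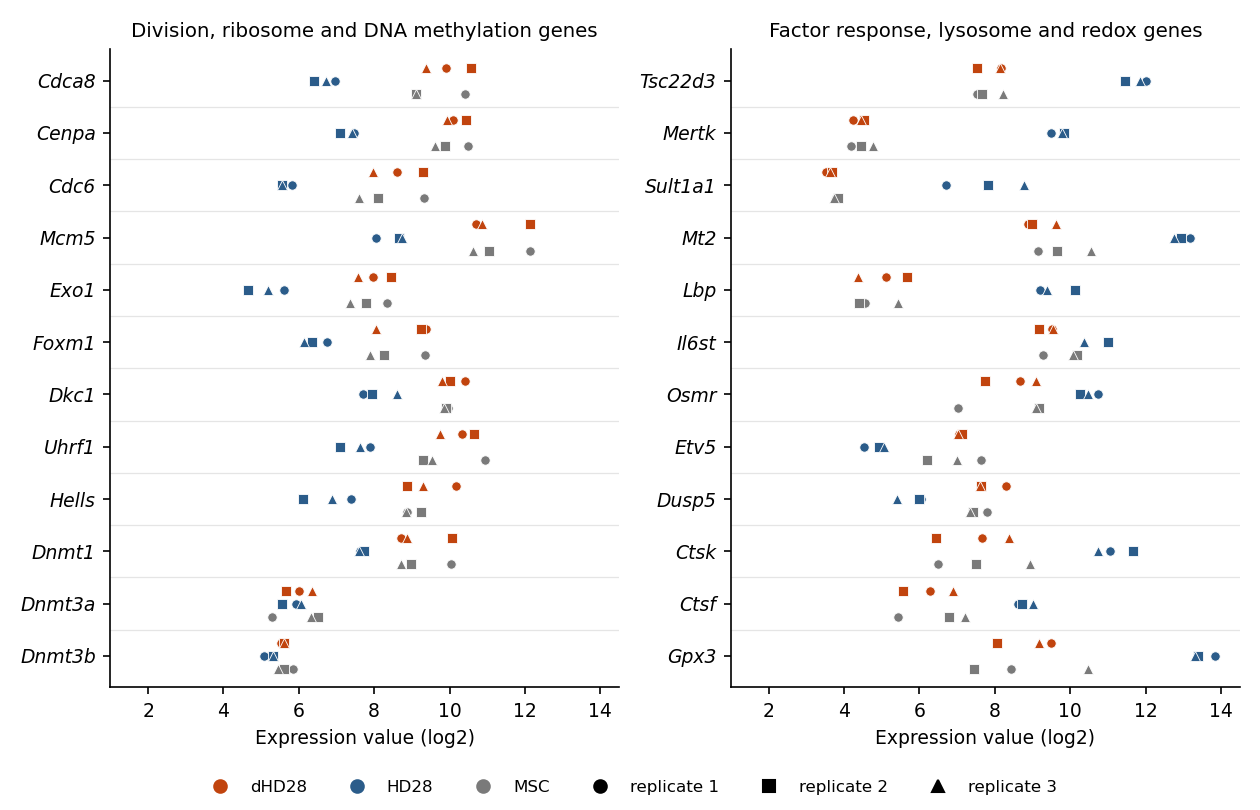
Expression values (log2, horizontal axis) per array of 12 genes of division, ribosome biogenesis and DNA methylation (left) and of 12 genes of factor response, the lysosome and redox metabolism (right), with colours for dHD28, HD28 and MSC and marker shapes for the replicate. Division genes are higher in dHD28 (Cdca8 at 9.38 to 10.58, against 6.39 to 6.96 in HD28), Dnmt3a overlaps between groups, and Mertk, Mt2 and Ctsk are lower in dHD28.

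Smooth muscle contractile genes divided into a few large increases and many without a call: 6 of 24 rose and 2 fell (median 0.48), and without HD28 replicate 3, 5 rose and 0 fell. Actg2, the enteric smooth muscle actin, stood at 9.84, 10.1 and 9.71 in dHD28 and at 4.37, 4.24 and 4.05 in HD28, and Cnn1, calponin, at 10.13, 9.59 and 9.56 against 5.07, 3.82 and 4.9. Myl9 was at 11.35, 10.48 and 11.19 in dHD28 and at 7.79, 7.69 and 7.08 in HD28 (log2 change 3.48, SE 0.68, adjusted p = 0.0044). The groups of each lay well apart. Srf was at 9.33, 9.32 and 8.13 in dHD28 and at 7.11, 7.25 and 7.5 in HD28 (log2 change 1.64, SE 0.34, adjusted p = 0.0056), and of the 4 contractile genes with a CArG box in the window, Myl9 and Srf changed while Cnn2 and Vcl did not pass the test. MSC means were 9.21 for Actg2, 9.45 for Cnn1, 10.68 for Myl9 and 8.55 for Srf. The 2 decreases, of Mylk and Smtn, were lost, in whole or in part, whichever of the 6 arrays was left out. Of 25 targets of the mechanosensitive cofactors YAP and TAZ 2 rose, Ankrd1 and Asap1, and 0 fell (median -0.10), with 1 without dHD28 replicate 1 or HD28 replicate 3 and 4 without dHD28 replicate 3. Over all genes 4.63% were higher.

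In the TGF-β list 4 of 30 rose and 3 fell (median -0.03). Grem1, a secreted BMP antagonist, was at 8.14, 8.17 and 8.69 in dHD28 and at 5.87, 5.21 and 5.92 in HD28 (log2 change 2.67, SE 0.38, adjusted p = 0.00054). Fst, the activin antagonist follistatin, had 7.31, 7.65 and 8.48 in dHD28 and 10.78, 10.46 and 11.31 in HD28 (log2 change -3.04, SE 0.82, adjusted p = 0.026), and the receptor gene Tgfbr2 was 3.15-fold lower (adjusted p = 0.05, and 0.067 with the replicate number as a block). All 3 decreases lost their call without dHD28 replicate 1 or 2 or any 1 HD28 array, and 2 increases remained without dHD28 replicate 1 or 2.

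Matrix genes went both ways. Of 38 genes of collagens and their processing 3 rose and 4 fell (median -0.32), with the same counts without HD28 replicate 3, and 7 fell when the spike-in class entered as a block. Col11a1, a fibrillar collagen of cartilage, was at 7.92, 6.92 and 8.13 in dHD28 and at 10.52, 10.88 and 10.25 in HD28 (log2 change -2.89, SE 0.56), and Col6a2, of microfibrillar collagen, was 3.57-fold lower. Loxl1, a cross-linking oxidase, was 3.41-fold higher. The abundant Col1a1 and Col1a2 had no call, with log2 changes of -0.27 and -0.32. Of 37 proteoglycans and matricellular genes 2 rose and 6 fell (median -0.72), the same counts without HD28 replicate 3, and 10 fell when the spike-in class entered as a block. The small leucine-rich proteoglycan gene Lum was at 4.98, 4.36 and 4.76 in dHD28 and at 9.72, 8.88 and 7.91 in HD28.

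Of 28 matrix proteases and inhibitors 9 fell and 1 rose (median -0.66), or 6 and 1 without HD28 replicate 3. Timp4, a metalloproteinase inhibitor, was at 4.55, 4.77 and 4.38 in dHD28 and at 8.4, 8.18 and 6.56 in HD28 (log2 change -3.15, SE 0.37). Mmp3, the stromelysin, was 8.38-fold lower and Adamts1, which cleaves proteoglycans, 6.37-fold lower. Mmp13, a collagenase, varied within dHD28. Its dHD28 replicate 2 was at 4.15, replicates 1 and 3 at 7.4 and 8.2, and the HD28 arrays at 12.49, 12.13 and 12.44, with an adjusted p = 0.037 that was lost without dHD28 replicate 1 or 2 or any 1 HD28 array. Of 28 integrins, cadherins and other adhesion receptors 5 fell and 1 rose (median -0.27), or 5 and 2 without HD28 replicate 3, and 2 rose also without dHD28 replicate 3 and with the replicate number as a block. Cdh13, a cadherin without a cytoplasmic tail, had 6.62, 7.53 and 7.36 in dHD28 and 10.83, 11.64 and 11.03 in HD28 (log2 change -3.99, SE 0.26, adjusted p = 1.1e-06), with 1 of 4 probe sets of opposite sign. Itgbl1 was 37.2-fold lower, with dHD28 replicate 2 at 5.31 and the others at 7.3 and 7.79, and Itga10, a collagen-binding integrin chain, was 19.8-fold lower.

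Of 31 Wnt ligands and modulators 7 fell and 1 rose (median -0.04), the same counts as without HD28 replicate 3. Nkd2, an inhibitor that Wnt signals induce, stood at 4.87, 5.05 and 4.89 in dHD28 and at 7.45, 8.27 and 7.65 in HD28 (log2 change -2.85, SE 0.18, adjusted p = 9.3e-07). Sfrp1, a decoy receptor for Wnt proteins, had 6.75, 6.78 and 7.9 in dHD28 and 9.72, 10.09 and 9.73 in HD28 (log2 change -2.7, SE 0.44). Ccn5 was 5.43-fold lower. Wif1, a Wnt-binding inhibitor, was dim at 1.68 to 2.08 in dHD28 and read 8.26, 2.61 and 6.52 in HD28, with HD28 replicate 2 close to dHD28, and its call was lost without HD28 replicate 3.

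Growth factors of the insulin-like family and imprinted genes fell in 6 of 25 cases and rose in 1 (median -0.43), or 5 and 1 without HD28 replicate 3, and 2 rose without dHD28 replicate 2 or 3. Igf1 was at 6.92, 5.55 and 7.57 in dHD28 and at 10.43, 10.37 and 10.82 in HD28 (log2 change -3.86, SE 0.77, adjusted p = 0.005). Igfbp4, which binds and restrains it, had 7.18, 7.55 and 8.09 in dHD28 and 11.08, 11.59 and 12.23 in HD28 (log2 change -4.03, SE 0.56), with all 6 probe sets called the same way. Every dHD28 array of both was below every HD28 array. Their MSC means were 7.37 and 8.18.

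Lysosomal proteases and other lysosomal genes were lower in dHD28: 15 of 28 in the list, which also holds the inhibitor gene Ctla2a, fell and 0 rose (median -1.29). Without HD28 replicate 3 the count was 10 and the median -1.39. It was 7 without dHD28 replicate 1 or 2, 8 without HD28 replicate 1 or 2 and 9 in arrays of low spike-in signal alone. Ctsk, the collagen-degrading cathepsin of bone, was at 7.65, 6.45 and 8.38 in dHD28 and at 11.07, 11.67 and 10.74 in HD28 (log2 change -3.67, SE 0.61, adjusted p = 0.0015). Ctsf, a cysteine protease, had 6.27, 5.57 and 6.9 in dHD28 and 8.61, 8.72 and 9.02 in HD28 (log2 change -2.53, SE 0.45). The groups did not overlap for either, and dHD28 replicate 2 was the lowest array each time. Ctla2a, an inhibitor of cathepsin L-like proteases, was at 6.22, 4.93 and 6.66 in dHD28 and 12.79, 13.39 and 13.2 in HD28. Macrophage markers summed to 234.6 to 262.1 in dHD28 and to 277.4, 300.1 and 625.4 in HD28. Their median log2 change was -0.42, or 0.08 without HD28 replicate 3. With all arrays or without HD28 replicate 3, 0 of 12 were called, against 1 when the spike-in class entered as a block. Cd68, itself lysosomal, was the only one of them without overlap between groups. It was at 4.7, 4.5 and 5.67 in dHD28 and at 6.51, 6.14 and 6.09 in HD28 (adjusted p = 0.11). Adgre1 was at 3.09 to 3.8 in dHD28 and 3.26 to 3.64 in HD28. The part of macrophage markers in the lysosomal result was not tested.

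Redox and detoxification genes outside the liver set followed, 11 of 32 lower and 0 higher (median -1), or 9 without HD28 replicate 3 (median -0.64) and 7 without dHD28 replicate 1 or 2 or in arrays of low spike-in signal alone. Gpx3, the secreted glutathione peroxidase, a selenium enzyme, was at 9.49, 8.07 and 9.16 in dHD28 and at 13.84, 13.39 and 13.31 in HD28 (log2 change -4.61, SE 1.04, adjusted p = 0.01). Aox1, aldehyde oxidase, had 6.53, 4.36 and 6.65 in dHD28 and 9.64, 9.83 and 9.27 in HD28 (log2 change -3.74, SE 0.78). In iron, copper and zinc handling 8 of 26 fell and 2 rose (median -0.28), the same counts as without HD28 replicate 3, and 1 rose without dHD28 replicate 1 or 3 or HD28 replicate 2. Mt2 stood at 8.88, 9.0 and 9.62 in dHD28 and at 13.18, 12.95 and 12.76 in HD28, and Mt1 was 5.77-fold lower. Of the 12 members with metal response letters in a window 5 changed. Hfe, which tunes iron sensing, was 8.16-fold lower, and Cp, the copper-carrying ferroxidase ceruloplasmin, had all 8 probe sets lower.

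Of the other metabolic lists, those on cholesterol, glycolysis and fatty acid oxidation were near the shares of all genes (4.63% higher and 4.19% lower). Those on retinoid metabolism and on adipogenic and lipid genes were above the share of genes lower. In retinoid metabolism 4 of 25 fell and 1 rose (median -0.40, or 0.02 without HD28 replicate 3), and 2 rose without dHD28 replicate 3. The decreases were led by the retinaldehyde dehydrogenase genes Aldh1a1 and Aldh1a7. Aldh1a3, a relative, had no call at 4.79 to 5.05 in dHD28 and 4.45 to 4.77 in HD28. Of 32 adipogenic and lipid genes 6 fell and 1 rose (median -0.17), or 4 fell without HD28 replicate 3 and 3 without dHD28 replicate 1 or 2 or HD28 replicate 2. Klf15, a glucocorticoid-induced factor of fat and amino acid metabolism, was at 4.23, 3.92 and 4.58 in dHD28 and at 6.12, 8.44 and 8.6 in HD28 (log2 change -3.47, SE 0.58). In cholesterol synthesis 1 of 20 rose, Mvd, and 1 fell, Ebp, 2.45-fold lower, with a median of 0.64, and the call of Mvd was lost with the replicate number as a block (adjusted p = 0.055) and without dHD28 replicate 2 or 3 or HD28 replicate 1 or 2. Glycolysis had 1 of 19 higher and fatty acid oxidation 1 of 23 lower, and neither call remained without dHD28 replicate 2 or without HD28 replicate 2 or 3. Without HD28 replicate 1, 3 genes of fatty acid oxidation were lower. In 8 of its 23 genes every dHD28 array was below every HD28 array, as in 12.3% of all genes.

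Innate immune genes that stroma and liver both make were lower: 7 of 16 complement genes fell and 0 rose (median -1.82), or 5 without HD28 replicate 3 (median -0.65) and 4 without dHD28 replicate 2. Cfb, the factor B protease of the alternative pathway, stood at 4.69, 5.02 and 4.73 in dHD28 and at 8.1, 7.48 and 9.14 in HD28, with HD28 replicate 3 the highest, and its call held without that array (log2 change -2.98, adjusted p = 4.4e-06). Serping1, the C1 inhibitor, read 3.32, 3.35 and 3.6 in dHD28 and 6.52, 3.75 and 9.74 in HD28, and its call did not hold without that array (adjusted p = 0.087). Among interferon-stimulated and antigen presentation genes 4 of 31 fell and 0 rose (median -0.48), with 2 to 9 as 1 array was left out, 9 without dHD28 replicate 3 and 2 without replicate 2 of either group. Members of the class I pathway made up these 4: H2-D1, 5.46-fold lower with 1 of 9 probe sets of opposite sign, the immunoproteasome subunit Psmb9, the loading factor Tapbp and the light chain B2m, and Tapbp and B2m lost their call without replicate 2 of either group. Tapbp also lost it without dHD28 replicate 1 or HD28 replicate 3 (adjusted p = 0.051). Of 28 chemokine and prostaglandin genes 3 rose, Ptgs2, Ptges and Cx3cl1, and 1 fell, Ccl8, and without dHD28 replicate 2 the counts were 1 and 2. The number that fell was 0 without dHD28 replicate 1 and 2 without HD28 replicate 2 or 3.

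The counts in lists on lineage are to be read beside 4.63% of all genes higher and 4.19% lower. Among these lists, that for bone and cartilage stood furthest above both shares. Of 33 mesenchymal transcription factors 4 rose and 1 fell (median 0.09), with 2 higher without dHD28 replicate 1 or HD28 replicate 2 and 1 higher without dHD28 replicate 2. Lhx9, a LIM homeobox factor, was at 5.46, 6.03 and 5.94 in dHD28 and at 3.74, 3.58 and 3.54 in HD28 (log2 change 2.19, SE 0.24, adjusted p = 9.1e-05), and Id4, an inhibitor of basic helix-loop-helix factors, at 6.28, 5.52 and 5.92 against 10.11, 9.64 and 8.88 (log2 change -3.64, SE 0.58). Foxc2 was 2.69-fold higher, a call lost without dHD28 replicate 2. Of 28 Hox genes 2 rose, Hoxb6 and Hoxb9 (median 0.23). Hoxb9 lost its call with the replicate number as a block (adjusted p = 0.051) and without any array other than dHD28 replicate 3. In the list for bone and cartilage 4 of 22 rose and 3 fell, or 4 and 2 without HD28 replicate 3. Ibsp, bone sialoprotein, read 3.42, 3.42 and 3.35 in dHD28 and 9.06, 5.36 and 8.02 in HD28, and Comp, of cartilage matrix, was 5.27-fold lower, whereas Msx2 and Tnfrsf11b, which encodes osteoprotegerin, were 5.35-fold and 5.36-fold higher. Of 22 surface antigens 2 rose and 1 fell, or 3 and 0 without HD28 replicate 3, and 4 rose when the spike-in class entered as a block. Itga6 was 4.42-fold higher and Cd34 3.47-fold higher (a call lost without dHD28 replicate 1 or 2 or HD28 replicate 2), while Pdgfra was 5.55-fold lower, a call lost without dHD28 replicate 1 or 2 or any 1 HD28 array. Thy1, at 4.75, 5.71 and 5.86 in dHD28 and 3.75, 4.11 and 3.93 in HD28, missed the threshold (adjusted p = 0.053).

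The difference in hepatocyte genes between the groups depended on HD28 replicate 3. With all arrays the medians were -2.10 over 38 secreted proteins, -2.05 over 31 enzymes, -1.17 over 20 transporters and receptors and -0.30 over 20 transcription factors, and without that array they were 0.10, -0.01, -0.05 and 0.18. Calls were few in both fits, 2, 1, 1 and 2 lower with all arrays and 2, 1, 0 and 0 without it, with 0 higher, and with the replicate number as a block 4 enzymes were lower. Alb, serum albumin, was at 3.35, 3.74 and 3.94 in dHD28 and at 3.38, 3.74 and 13.8 in HD28, against a mean of 14.12 in Hepatocyte. Hnf4a, the master factor of the hepatocyte, was at 4.48, 5.14 and 5.3 in dHD28 and at 4.92, 5.13 and 8.58 in HD28. In both genes replicates 1 and 2 of HD28 lay within the range of the dHD28 arrays, and MSC means were 3.9 and 5.22.

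Leaving HD28 replicate 3 out moved the log2 change of 269 genes by at least 1. In all 269 that array was higher than both other HD28 arrays, and for 268 the Hepatocyte mean was at least 4-fold above the mean of HD28 replicates 1 and 2. The largest shifts were those of Cyp3a11, a drug-metabolising cytochrome, at 2.92, 2.95 and 13.29 in HD28, of Alb, of Fabp1, which binds fatty acids, and of Serpina1c, an antitrypsin. With all arrays 9 of the 269 had passed the test. The keratins Krt8 and Krt18 had the same pattern, with 9.92 and 9.93 in that array and 3.06 to 4.85 in the other HD28 arrays.

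A few acute phase genes that hepatocytes make were above dHD28 in all HD28 arrays. Hp, haptoglobin, was at 5.4, 5.45 and 5.67 in dHD28 and at 9.63, 10.77 and 12.35 in HD28 (log2 change -5.41, and -4.7 with adjusted p = 0.01 without HD28 replicate 3). Orm1, the acute phase protein orosomucoid, read 2.62, 2.77 and 3.14 in dHD28 and 6.83, 5.12 and 10.61 in HD28 (log2 change -4.68, and -3.13 with adjusted p = 0.00037 without that array). Both were lower in every dHD28 array than in any HD28 array, and dHD28 levels of Orm1 were dim.

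**Figure D4:**
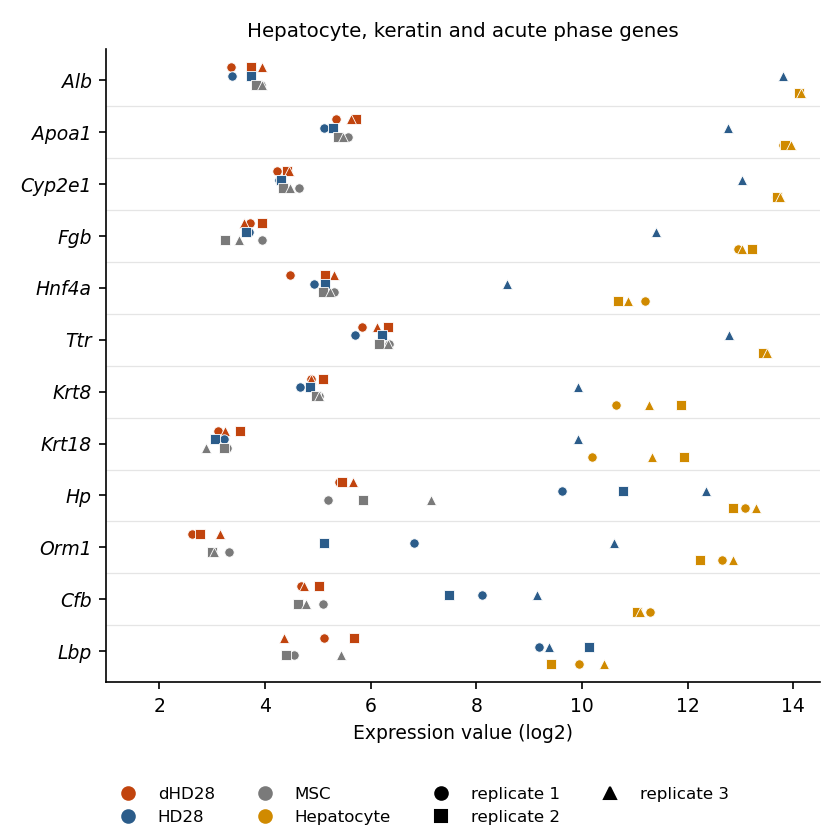
Expression values (log2, horizontal axis) per array of 12 hepatocyte, keratin and acute phase genes in dHD28, HD28, MSC and Hepatocyte, with marker shapes for the replicate. For Alb to Krt18 a single HD28 array, replicate 3 (triangle), lies toward Hepatocyte but below it, while the other HD28 arrays are near dHD28. Hnf4a, for example, is at 8.58 in that array and at 10.68 to 11.19 in Hepatocyte. For Hp, Orm1, Cfb and Lbp all 3 HD28 arrays are above dHD28.

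**Figure D5:**
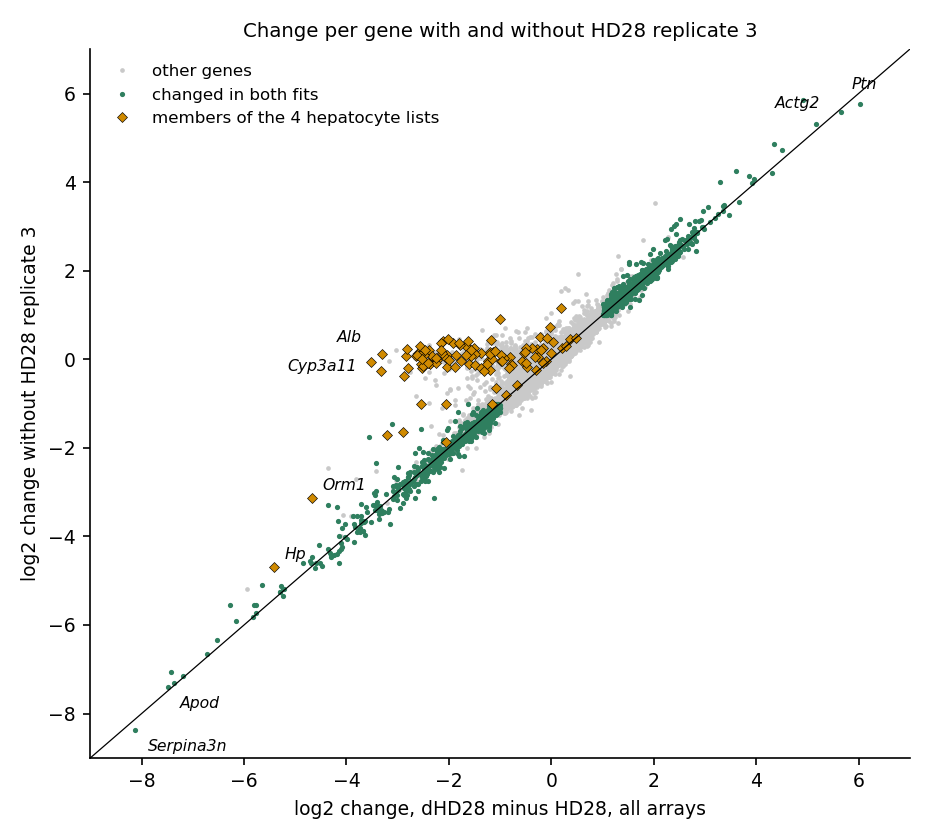
Log2 change of each of 18193 genes in dHD28 minus HD28 with all arrays (horizontal axis) and without HD28 replicate 3 (vertical axis), with the 1244 genes changed in both fits in green, members of the 4 hepatocyte lists as diamonds and the line of equal values. Most genes follow the line, and most hepatocyte genes lie below 0 with all arrays (Alb at -3.3) and near 0 without that array (Alb at 0.11).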

How the data were processed

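RNA was measured on 1 mouse expression array per sample, and the authors deposited log2 expression values per probe set made with RMA, per the submitters' processing notes; the log base was taken as 2 from the values. Arrays have no read depth, so their number limits the precision, and no detection calls were used here. Of 45101 probe sets 34945 had 1 gene symbol (932 had several and 9160 none), and for each of 18193 genes the set with the highest mean over 15 arrays was kept. All 15 arrays in 5 groups were fitted with limma 3.58.1 in R 4.3.3 (10 residual degrees of freedom), p-values were adjusted over all genes by Benjamini-Hochberg, and a gene was called where this p was below 0.05 and the fold 2 or more. Standard errors are those of the fit. Deviations of same-numbered dHD28 and HD28 arrays from their group means correlated at 0.32, 0.28 and 0.12, so a fit with the replicate number, given in the labels, as a block was also made. Number 2 is also the array of high spike-in signal in both groups. The genes named are the 12 largest changes each way among genes called both with all arrays and without HD28 replicate 3 whose arrays do not overlap, the 8 largest shifts without HD28 replicate 3, up to 4 changed members per list (2 where none changed) and the receptors, cell type markers and DNA methylation genes; Srf and the other genes named with a promoter window were added after their values were seen. The members and gene lists were chosen with earlier results of these data known, and lists share some genes. The fit was tested on simulated data. Alternatives covered left-out arrays, blocks, probe-set choice, dim genes, scaling and the test. The arrays labelled MLC entered the fit and are otherwise not described.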

Additional observations from a re-analysis of the deposited data

How the results depend on the processing

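The number of changed genes, 1605 with all arrays, kept within 1.5 times of that value under 21 of the 23 alternatives. Without a fold limit 2562 genes were called, 1450 of them higher in dHD28, and a test against a fold of 1.5 (treat) called 587, 286 higher and 301 lower. With each of the 6 arrays left out in turn the count was 1162 to 1920, with 613 to 1025 genes higher and 538 to 895 lower. The replicate number as a block gave 1610 genes (844 higher and 766 lower), of which 1563 were shared, and among the 240 named genes it ended the call of 6, Dnajb9, Hoxb9, Mvd, Sesn1, Sox9 and Tgfbr2, and changed no other call of a named gene. The spike-in class as a block gave 1905 genes, and arrays of low spike-in signal alone gave 1249. A fit of only the 6 dHD28 and HD28 arrays gave 1496 genes, 793 higher and 703 lower. Among the named genes that fit ended 21 calls and added 6. Centring on housekeeping genes gave 624 higher and 1010 lower genes, and the cause was not tested. No named gene reversed its direction with a call under these alternatives. Of the 240 named genes 201 to 227 kept their side of the threshold with 1 array left out. Signal near the background limits the size of changes of dim genes, and 3 arrays per group limit the rest.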
